A study of Macaca mulatta with 304 samples.

Results

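Blood drawn 15 days after thoracic irradiation was compared with blood that the same rhesus macaques (Macaca mulatta, Chinese sub-strain, aged 3 to 5 years) gave before irradiation. The comparison held 48 libraries, a control and a Day 15 library from each of 24 of the 28 animals in the series, chosen by the animal identifier in the sample names, as the other 4 animals had neither. The lower dose (LD) group received 9.8 Gy and the higher dose (HD) group 10.7 Gy to the thorax from a linear accelerator, and each held 12 of these animals, 6 females and 6 males. The control draw was labelled Day -2 and 0 Gy. Every animal had been fasted, given ondansetron and sedated with ketamine/xylazine for the irradiation, and received tramadol (or buprenorphine) from Day 4 to Day 25, so all Day 15 samples and no control samples fell within the analgesic period. Dexamethasone was reserved for animals with tachypnea. No unirradiated animals were followed to Day 15, so irradiation, its sedation, the analgesics and the repeated blood draws cannot be told apart here.

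Whole blood holds RNA from leukocytes, platelets and reticulocytes, the youngest circulating red cells, which keep RNA for a short time after losing their nucleus. Red cell precursors in the marrow load hemoglobin, build heme, assemble a protein skeleton under the membrane and then clear their organelles, and the transcripts for these steps remain in reticulocytes. B cells are radiation-sensitive lymphocytes that carry the antigen receptor with its CD79 signalling chains. Type I interferons induce a set of antiviral genes in most blood cells. In bulk blood, fewer cells of a type and less RNA per cell cannot be told apart, and the same holds for more cells and more RNA per cell.

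The lists used below were grouped by function or cell type, and 13751 of 21070 genes had enough counts to be tested. Paired by animal, edgeR's quasi-likelihood F statistic was computed per gene, and calls needed both a Benjamini-Hochberg value no higher than 0.05 (printed as adjusted p) and a 1.5-fold change or more. Levels are given as CPM, counts relative to the upper quartile scaled library size, and changes are log2 fold changes ± SE. Of 826 called genes at Day 15, 703 were higher, 5.11% of those tested, and the rest were lower, 0.894% of those tested. The median change over all tested genes was -0.04. Among the called genes, 344 were at least 2-fold higher, 56 at least 4-fold higher and 2 at most 0.5 of the control level. Of the 703 genes, 336 were higher in 24 of 24 animals, and 16 of those called lower were lower in 24 of 24. In 1 called gene, TNS1, an adhesion protein chosen after its value was seen, the groups did not overlap: it ran from 12.1 to 66.8 CPM (median 40.1) in the controls and from 71.98 to 345 CPM (median 115.03) at Day 15, a change of 1.599 ± 0.14.

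Total counts per library ran from 6676757 to 14609879 in the controls (median 11697186) and from 7745747 to 14373516 at Day 15 (median 11465232). Defining markers of blood leukocytes (PTPRC, CD3E, MS4A1, CD14, CSF3R and NKG7) had at least 300 counts in every library, while among lung and skin epithelial markers SFTPC, SFTPA1, SFTPD, KRT14, KRT1 and LOR had at most 2 counts in any, KRT5 at most 5 and SCGB1A1 at most 17. The other epithelial markers, SFTPB, AGER and KRT10, had at least 15 counts in every library. The fibroblast gene DCN had a median of 1.5 counts (at most 9) in the controls and 3.5 (at most 82) at Day 15, and the median counts of the collagens COL1A1, COL1A2 and COL3A1 were 5, 3.5 and 1 in the controls and 2, 2 and 1 at Day 15. The 6 Y-linked genes examined summed to at most 3.57 CPM in libraries labelled female and at least 330 CPM in those labelled male. The labels number the libraries: 4 animals carried the number 0 at both draws, and in the other 20 the control number (median 28.5) was below the Day 15 number (median 83.5) in 16 and above it in 4, all 4 of them LD. What the numbers stand for is not given in the sources used here. The share of counts from the erythroid lists rose from a median of 1.78% (range 0.826 to 3.07%) to 5.58% (range 2.86 to 13%).

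Promoter sequences are shown for 3 members that moved with their lists: the erythroid transcription factor KLF1, higher, the ubiquitin-like antiviral protein ISG15, higher, and the B cell receptor chain CD79A, lower. Each window covers the 250 bases before the RefSeq transcript start in Mmul_10, the build of the count table, and reads 5′ to 3′ on the gene's strand. Capitals mark matches, on either strand, to AGATAA (which GATA factors bind), CCNCNCCC (the CACCC box bound by KLF factors), GAAANNGAA (an interferon-regulatory factor motif) or CCCNNGGG (an EBF motif), and matches may overlap each other.
KLF1, chr19:12471076-12471325, minus strand: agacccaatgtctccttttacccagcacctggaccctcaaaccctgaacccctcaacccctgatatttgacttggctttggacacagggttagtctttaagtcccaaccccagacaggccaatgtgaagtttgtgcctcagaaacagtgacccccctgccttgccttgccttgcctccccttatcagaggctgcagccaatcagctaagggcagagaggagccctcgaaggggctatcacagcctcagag
ISG15, chr1:223405103-223405352, minus strand: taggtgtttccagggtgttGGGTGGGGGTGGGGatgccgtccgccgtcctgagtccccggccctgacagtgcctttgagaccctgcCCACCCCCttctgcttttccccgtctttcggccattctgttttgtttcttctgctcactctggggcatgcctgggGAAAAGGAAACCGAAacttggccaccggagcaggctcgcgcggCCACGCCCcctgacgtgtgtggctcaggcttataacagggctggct
CD79A, chr19:41019124-41019373, plus strand: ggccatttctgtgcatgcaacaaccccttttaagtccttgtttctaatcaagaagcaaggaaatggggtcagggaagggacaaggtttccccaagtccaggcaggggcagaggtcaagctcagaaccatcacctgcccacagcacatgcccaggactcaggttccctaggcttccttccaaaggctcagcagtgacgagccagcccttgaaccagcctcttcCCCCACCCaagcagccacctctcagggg

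The ISG15 window held 2 GAAANNGAA and 5 CCNCNCCC matches, that of CD79A held 1 CCNCNCCC match, and that of KLF1 held none of the 4 letter patterns. Over the tested genes with such a window (13297, leaving out models that start at the coding sequence), AGATAA was found in 6.63%, CCNCNCCC in 58.7%, GAAANNGAA in 6.47% and CCCNNGGG in 17.1%. Of 78 windows of the erythroid lists, 11 held AGATAA (14.1%) and 43 held CCNCNCCC (55.1%). Of 33 interferon response windows, 13 held GAAANNGAA (39.4%), and of 22 B cell windows 4 held CCCNNGGG (18.2%). These are counts of letters in a window, with no test. Other spellings of the same sites were not searched, so a window without a match, such as that of KLF1, may still hold such a site.

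Red cell genes rose at Day 15, and their 4 lists had the highest medians of the lists not taken from the study. The 4 lists share members with the study's Day 15 lists, which were chosen from these same samples. Among the shared members are ALAS2, HBB, DMTN, UBE2O, RIOK3, BCL2L1, RNF115, SLC48A1 and UBAC1, which are not independent evidence of a direction. Over the globin and heme, membrane and skeleton, erythroid regulator and reticulocyte maturation lists, 67 of 82 tested genes rose and none fell, with a median log2 fold change of 1.54, against -0.04 for all tested genes. By comparison, 5.11% of all tested genes were called higher. HBA, HBB, SLC4A1 and KLF1 were 8.46-, 7.46-, 6.28- and 5.91-fold higher. The mean log2 ratio of each of these 4 lists was above 0 in 24 of 24 animals.

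Of 19 tested genes for globin and heme, 16 rose (median 1.05). HBA, the alpha globin chain (chr20:190724-191412, plus strand), ran from 1.58 to 72.5 CPM with a median of 20.01 in the controls and from 1.49 to 688 CPM with a median of 179 at Day 15. It rose by 3.08 ± 0.25 on the log2 scale (adjusted p = 1.05e-10) in 23 of 24 animals, and the ranges overlapped, with the lowest Day 15 library slightly below the lowest control. HBB, the beta globin chain (chr14:63067679-63069138, plus strand), ran from 3.73 to 335 CPM (median 90.1) before irradiation and from 28.7 to 3078 CPM (median 755) at Day 15, a change of 2.90 ± 0.28 (adjusted p = 1.39e-09). Both globin values are of transcripts left after Ribo-Zero Plus treatment, a kit whose probes also target human globin RNA, and counts of near-identical alpha globin copies may be split, so their levels are uncertain.

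ALAS2 (chrX:54735685-54755120, minus strand), the erythroid enzyme that starts heme synthesis, ranged from 881 to 9465 CPM (median 4576) in the controls and from 7853 to 67520 CPM (median 17431) at Day 15. Every animal was higher at Day 15 (2.30 ± 0.21, adjusted p = 4.62e-10), although the group ranges overlapped slightly. The mitochondrial carrier SLC25A39 rose by 2.26 ± 0.16 and AHSP, the chaperone of free alpha globin, by 2.14 ± 0.16, each in 24 of 24 animals. Further steps, named here after their values were seen, rose as well: GLRX5, which serves iron-sulfur cluster assembly, by 2.20, and FECH, which inserts iron into the ring, by 2.105. The members not called were CPOX (-0.11), ABCB6 (0.35) and ALAD (0.54), so the enzymes of the pathway did not all pass the threshold.

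The membrane and skeleton list had the highest median of the lists tested (1.83), with 19 of 20 genes higher. SLC4A1, the band 3 anion exchanger (chr16:55510407-55531543, minus strand), lay between 54.5 and 2472 CPM (median 676) before irradiation and between 702 and 24439 CPM (median 3262) at Day 15, a change of 2.65 ± 0.23 (adjusted p = 1.83e-10). It was higher in 24 of 24 animals while the group ranges overlapped. ADD2, an adducin that caps the skeleton's actin filaments, rose by 2.43 ± 0.23 and DMTN, which bundles actin, by 2.36 ± 0.20. TSPAN33, a tetraspanin, was the only tested member not called, with -0.26 ± 0.09.

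**Figure D1:**
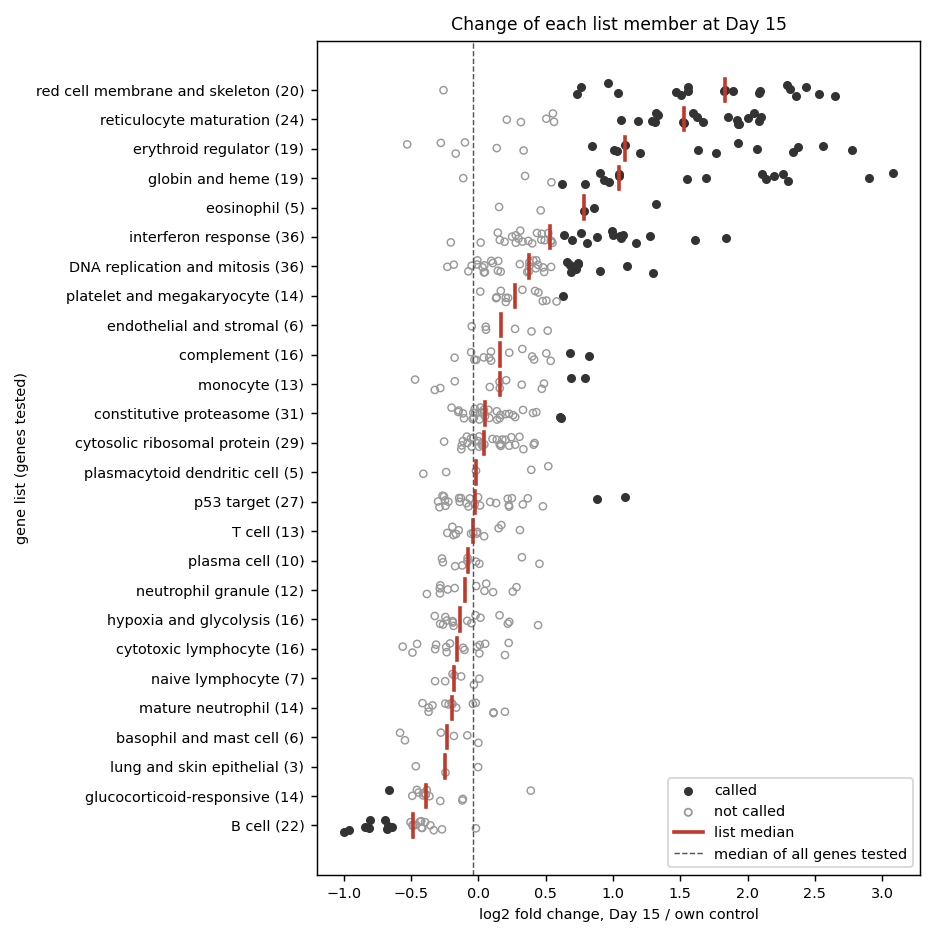
Log2 fold change of each tested list member at Day 15 against own control (x axis), by gene list (y axis, number of tested genes in brackets). Filled points were called, open points were not, red bars are list medians and the dashed line is the median of all tested genes; the 4 erythroid lists lie farthest right and the B cell list farthest left.

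Among 19 erythroid regulators and marker enzymes, 13 rose (median 1.09). KLF1, which switches on adult globin and many membrane genes (chr19:12468253-12471075, minus strand), ran from 5.92 to 150.4 CPM (median 40.97) in the controls and from 30.3 to 1454 CPM (median 224) at Day 15. Its log2 fold change was 2.56 ± 0.20 (adjusted p = 7.45e-11), higher in 24 of 24 animals with overlapping ranges. SELENBP1, a selenium-binding protein abundant in red cells, rose by 2.77 ± 0.21 and the ubiquitin ligase TRIM58 by 2.37 ± 0.25. Named after their values were seen, GATA1, the lineage-defining factor, rose by 1.63 ± 0.14, the erythropoietin receptor EPOR by 1.93 ± 0.17 and the transferrin receptor TFRC by 0.85 ± 0.10. The 6 not called were MYB (0.34), LMO2 (0.14), RHEX (-0.10), ZFPM1 (-0.17), GATA2 (-0.28) and BCL11A (-0.53), of which MYB and GATA2 act in early progenitors.

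Of 24 genes linked to reticulocyte maturation, 19 rose (median 1.53), and the log2 fold change was above 0 in 24 of 24. BCL2L1, the survival factor BCL-XL, ranged from 64.2 to 565 CPM (median 263) before irradiation and from 331 to 3464 CPM (median 1045) at Day 15, which gave 2.0996 ± 0.18 (adjusted p = 2.79e-10). DCAF12, a substrate receptor of a ubiquitin ligase, rose by 2.09 ± 0.17, and TMCC2, a transmembrane protein, by 2.05 ± 0.17. UBE2O, which tags ribosomes for removal in reticulocytes, rose by 1.92 ± 0.19, and BNIP3L, needed to clear mitochondria, by 1.93 ± 0.16 (named after its value was seen). All of these were higher in 24 of 24 animals.

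**Figure D2:**
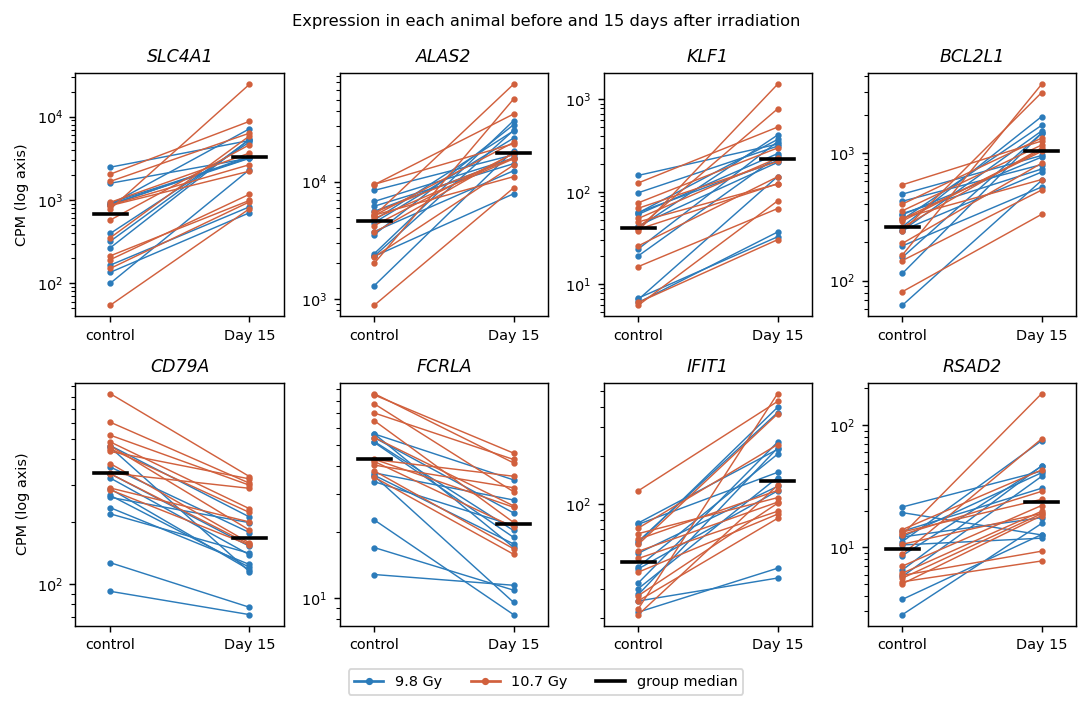
Level of 8 genes in CPM (y axis, log scale) in each of the 24 animals before irradiation and at Day 15 (x axis), a line per animal coloured by dose, with black bars at group medians. SLC4A1, ALAS2, KLF1, BCL2L1 and IFIT1 rose and CD79A and FCRLA fell in 24 of 24 animals, and RSAD2 was higher in 23 of 24.

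Ranked over all genes, the highest called genes with a symbol, at least 1 CPM and one direction in at least 22 of 24 animals included HBA, HBB, MPP2, HDAC11, SELENBP1, SLC4A1, KLF1, PRSS47, PKLR, RUNDC3A and RAB3IL1, with log2 fold changes from 2.45 to 3.08. PKLR encodes the pyruvate kinase of red cells and liver. It ran from 0.258 to 6.11 CPM (median 1.24) in the controls and from 1.96 to 33.6 CPM (median 6.03) at Day 15. HDAC11, a histone deacetylase, rose from a median of 23.6 CPM (range 3.94 to 84.1) to 172 CPM (range 52.4 to 633). Its exons overlap those of an unnamed locus on the other strand and PKLR those of HCN3. MPP2, a scaffold protein of the MAGUK family, changed by 2.82 ± 0.23, and PRSS47, a serine protease, by 2.49 ± 0.17 with no counts at either draw in 1 animal.

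The animals differed in the size of the erythroid change. For the membrane and skeleton list, the mean log2 ratio with 0.5 CPM added ran from 0.73 in B1504 (LD) to 3.61 in B2504 (HD), with a median of 1.40. The globin and heme list ran from 0.66 in B2003 (HD) to 3.11 in B2504. B2504 was highest in all 4 erythroid lists, and without that animal the number of called genes was 788 against 826 with it. In that animal and 3 others the labels give the library number 0, and in the remaining 20 animals 817 genes were called, with 16 of 19, 19 of 20, 13 of 19 and 19 of 24 members of the 4 lists higher. The membrane and skeleton values ran from 0.84 to 3.61 in the 4 animals with number 0, from 0.73 to 2.30 in the 4 whose control number was above the Day 15 number and from 0.78 to 2.80 in the 16 whose control number was below it. All 4 erythroid lists were above 0 in each animal of the 3 sets.

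B cell genes fell at Day 15. Of 22 tested, 9 fell and none rose, and the median log2 fold change was -0.49, with a value below 0 for 22 of 22 members. Among all tested genes, 0.894% were called lower. CD79A, a signalling chain of the B cell receptor (chr19:41019374-41024437, plus strand), was between 92.6 and 828 CPM (median 342) before irradiation and between 71.5 and 330.3 CPM (median 168) at Day 15. It fell by 0.96 ± 0.08 on the log2 scale (adjusted p = 8.75e-11), in 24 of 24 animals, with overlapping ranges. CD79A is also on the study's Day 15 dose list, chosen from these same samples, so it is not independent evidence of a direction.

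FCRLA, an Fc receptor-like protein inside B cells, ranged from 12.8 to 86.1 CPM (median 43.1) and then from 8.401 to 46.04 CPM (median 21.8), a change of -0.99 ± 0.09, also lower in 24 of 24. TNFRSF13C, the receptor for the survival factor BAFF, changed by -0.84 ± 0.11 and was lower in 22 of 24. Named after their values were seen, the inhibitory coreceptor CD22 changed by -0.81 and the lineage factor PAX5 by -0.64. MS4A1, which encodes CD20, was -0.36 ± 0.11 (adjusted p = 0.0118) and was not called, and neither were EBF1 (-0.46) and FCRL1 (-0.50). The mean log2 ratio of the B cell list was below 0 in 21 of 24 animals, from -1.31 in B1005 to 0.24 in B1501. Of the 10 plasma cell genes none was called, and POU2AF1, a coactivator in both lists, gave -0.27 ± 0.07.

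The 12 lowest genes under the same naming rule were DENND2A, FGFR1, FCRLA, CD79A, DMD, AEBP1, ITGAD, SOX5, SHISA8, TNFRSF13C, SAG and WNT7B, from -1.10 to -0.81. DENND2A, a regulator of Rab GTPases, was between 4.03 and 48.7 CPM (median 22.8) before irradiation and between 2.90 and 20.7 CPM (median 9.46) at Day 15 (adjusted p = 3.24e-10). ITGAD, the leukocyte integrin CD11d, went from a median of 97.04 CPM (range 36.4 to 185) to 49.3 CPM (range 19.2 to 107.97). Both fell in 24 of 24 animals, and neither had group ranges that separated. FGFR1, a fibroblast growth factor receptor, gave -0.9959 ± 0.10, and its exons overlap other genes on the opposite strand. DMD, the dystrophin gene, gave -0.95 ± 0.12, and the transcription factor SOX5 -0.87 ± 0.13. The falls were smaller than the rises: the lowest called value was -1.10, while 56 rose at least 4-fold.

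Interferon response genes were higher at Day 15. Of 36 tested, 15 rose and none fell (median 0.53), and CXCL10 did not pass the filter on low counts. Among all tested genes, 5.11% were called higher. IFIT1, which binds foreign RNA caps (chr9:89628584-89669645, plus strand), ran from 20.8 to 121.3 CPM (median 43.8) in the controls and from 35.1 to 482 CPM (median 139) at Day 15. It rose by 1.84 ± 0.17 (adjusted p = 1.16e-09) in 24 of 24 animals, and its exons overlap unnamed loci on the same strand, where reads could be split. Like CD79A, IFIT1 is on the study's Day 15 dose list and is not independent evidence of a direction.

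RSAD2, the antiviral enzyme viperin, ranged from 2.83 to 21.4 CPM (median 9.65) and then from 7.76 to 181 CPM (median 23.4), a change of 1.61 ± 0.20 with 23 of 24 animals higher. IFI44L, another interferon-induced gene, rose by 1.28 ± 0.22 in 19 of 24. Named after their values were seen, ISG15 rose by 1.17 ± 0.22 from a median of 2.88 CPM to 6.38 CPM, and MX1, a GTPase that blocks viral replication, by 0.63 ± 0.17 in 17 of 24 animals. ISG20, an interferon-induced RNA exonuclease, gave -0.20 ± 0.06 and was not called. The list's mean log2 ratio was above 0 in 21 of 24 animals, from -0.12 in B2001 to 1.66 in B2003. Among the 20 animals outside library number 0, 13 of the 36 were called. The list's mean log2 ratio had a median of 1.21 (0.20 to 1.66) in the 4 animals with number 0. It was 0.67 (0.04 to 1.59) in the 4 whose control number was above the Day 15 number. In the 16 whose control number was below it, the median was 0.51 (-0.12 to 1.35), with 13 above 0.

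**Figure D3:**
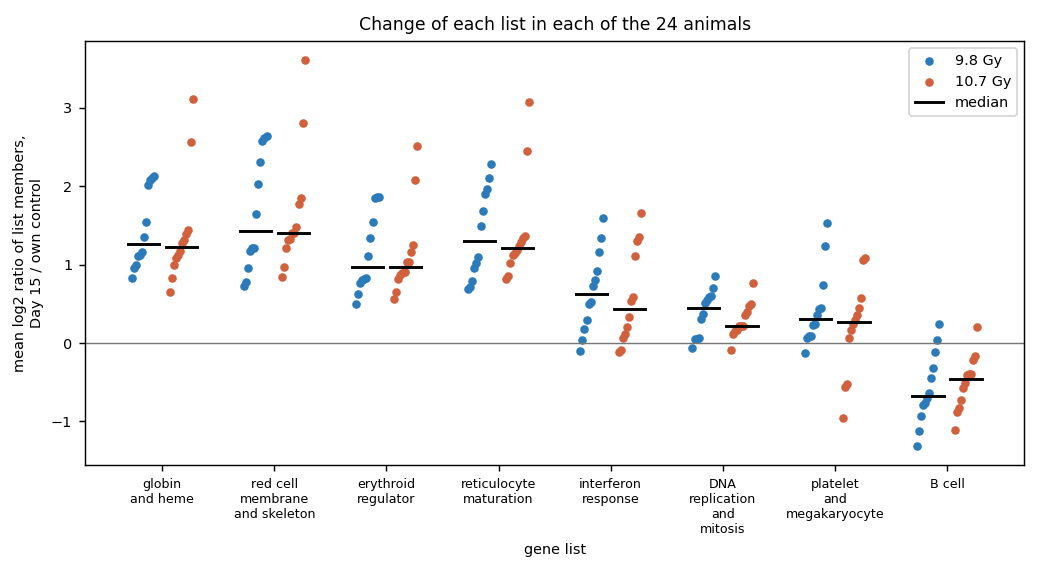
Mean log2 ratio (Day 15 against own control, with 0.5 CPM added) of the tested members of 8 gene lists (x axis) in each of the 24 animals, coloured by dose, with black bars at the dose group medians. The erythroid lists are above 0 in 24 of 24 animals, the interferon list in 21 and the B cell list in 3, and the dose groups overlap in all 8 lists.

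DNA replication and mitosis genes were mostly higher, with 9 of 36 called higher, none called lower and a median of 0.38. By comparison, 5.11% of all tested genes were called higher. The log2 fold change was above 0 for 30 of 36 members. The list's mean log2 ratio was above 0 in 22 of 24 animals. The spindle checkpoint kinase BUB1B rose by 1.29 ± 0.11, from a median of 11.6 CPM (range 5.02 to 28.1) to 30.2 CPM (range 14.6 to 64.7). NUSAP1, a spindle protein, rose by 1.11 ± 0.10 and BUB1, the partner checkpoint kinase, by 0.90 ± 0.12. The proliferation marker MKI67, named after its value was seen, gave 0.48 ± 0.11 and was not called.

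Targets of p53, the factor that responds to DNA damage, had 2 of 27 called higher, none called lower and a median of -0.03. That count is near the share of all tested genes, of which 5.11% were called higher. GADD45A, which responds to DNA damage and other stress, ran from 7.46 to 106.6 CPM (median 23.8) in the controls and from 19.0 to 152 CPM (median 58.1) at Day 15, a rise of 1.09 ± 0.14 in 23 of 24 animals. EDA2R, a receptor of the tumor necrosis factor family, rose by 0.88 ± 0.18 at low levels, from a median of 0.634 CPM to 1.05 CPM. CDKN1A and MDM2, named after their values were seen, were not called: the cell cycle inhibitor p21 (CDKN1A) gave 0.25 and MDM2, which degrades p53, gave -0.13. From Day 9 to Day 15 EDA2R fell by 0.82 ± 0.17, while GADD45A rose by 0.72 ± 0.12.

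Among other blood cell lists, 3 of 5 tested eosinophil genes rose (median 0.79): ALOX15, a lipoxygenase that is also in the reticulocyte list, by 1.32 ± 0.16, the granule enzyme EPX by 0.86 ± 0.26 and the interleukin-5 receptor IL5RA by 0.79 ± 0.20. EPX varied from 0.0859 to 95.4 CPM (median 2.12) in the controls and from 0.437 to 56.6 CPM (median 6.65) at Day 15, and 5 of 24 animals were lower. EPX was not called in LD animals alone or in males alone, and IL5RA was not called in males alone. Of the 5 eosinophil genes, 1 was called in males and 3 in females. Of 14 platelet and megakaryocyte genes only the platelet chemokine PPBP was called (0.63 ± 0.13, adjusted p = 2.81e-04), and it was no longer called without B2504 or without B2505, nor among the 20 animals outside library number 0. Of 13 monocyte genes 2 rose, MS4A7 by 0.80 ± 0.09 and CD300E by 0.69 ± 0.14. In the complement list, 2 of 16 rose, the receptor CR1 by 0.82 ± 0.08 and the inhibitor CD55 by 0.68 ± 0.10, both of them red cell surface proteins as well. Beside the small counts of the platelet, monocyte and complement lists, 5.11% of all tested genes were called higher.

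Of 14 glucocorticoid-responsive genes, 1 fell, DDIT4, an inhibitor of mTOR signalling (-0.66 ± 0.08), and the list median was -0.39. In the constitutive proteasome list 2 of 31 rose, PSMD4 (0.61 ± 0.09) and PSMC2 (0.61 ± 0.10), and neither was called without B2504. That count is near the share of all tested genes, of which 5.11% were called higher and 0.894% lower, and the proteasome list median was 0.05. No member was called in the T cell (13 tested), naive lymphocyte (7), cytotoxic lymphocyte (16), mature neutrophil (14), neutrophil granule (12), basophil and mast cell (6), plasmacytoid dendritic cell (5), hypoxia and glycolysis (16), cytosolic ribosomal protein (29), endothelial and stromal (6) or lung and skin epithelial (3) lists. Their members with the lowest p included the receptor chain CD247 in T cells (-0.23 ± 0.07), TBX21 in cytotoxic lymphocytes (-0.45 ± 0.08), TNFRSF10C in neutrophils (-0.41 ± 0.13), BACH2 in naive lymphocytes (-0.32 ± 0.07) and the mast cell receptor KIT (-0.58 ± 0.11). Further such members were AZU1 (0.28), TCF4 (-0.41), EGLN3 (0.44), RPL30 (0.42), CLDN5 (0.40) and AGER (-0.46).

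The leukocyte markers PTPRC (-0.05 ± 0.07), CD3E (-0.19 ± 0.07), CD14 (-0.17 ± 0.10), CSF3R (-0.16 ± 0.12) and NKG7 (0.05 ± 0.12) and the platelet integrin ITGA2B (0.17 ± 0.14) were not called at Day 15.

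The doses were compared by the change from own control in 12 animals each, which asks whether the higher dose moved blood genes further by Day 15. Dose and library number were partly confounded. The 4 animals with number 0 were all HD, and the 4 whose control number was above the Day 15 number were all LD. In LD animals alone, 943 genes were called (6.86% of those tested), and in HD animals alone 824 (5.99%). They shared 613, which is 65.01% of the LD calls and 74.4% of the HD calls, and all 613 had the same direction. A test of the difference between doses called 0 genes (0% of those tested) in edgeR, with 965 at an unadjusted p under 0.05. DESeq2 called 1, RPAIN, an importer of replication protein A chosen after its value was seen: the HD minus LD difference was 0.60 ± 0.12 in edgeR (adjusted p = 0.373) and 0.60 ± 0.12 in DESeq2 (adjusted p = 0.0155). Among the 20 animals outside library number 0, the edgeR test of the dose difference also called 0 genes.

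For SLC4A1 the changes were 2.64 in LD and 2.66 in HD, a difference of 0.02 ± 0.44. HBA changed by 3.56 in LD and 2.54 in HD, a difference of -1.03 ± 0.45 (adjusted p = 0.698) that was not called. CD79A gave -1.003 and -0.92, a difference of 0.08 ± 0.16, and IFIT1 1.91 and 1.76, a difference of -0.15 ± 0.35. Over the erythroid, interferon and B cell lists no member passed the test of the difference, which does not show that the doses acted alike. The B cell list had 12 of 22 members called in LD and 7 of 22 in HD, and the interferon list 19 and 14 of 36.

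**Figure D4:**
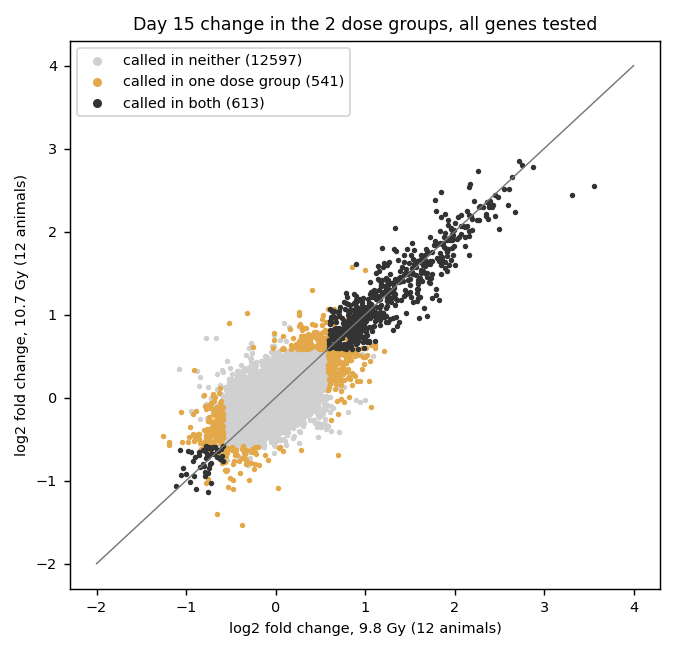
Log2 fold change at Day 15 against own control in the 12 LD animals (x axis) and the 12 HD animals (y axis) for each of the 13751 tested genes, with the line of equal change. Black points (613) were called in both dose groups, orange in 1 and grey in neither, and the points called in both share their sign.

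Females and males were compared in the same way. In females 870 genes were called (6.33% of those tested) and in males 791 (5.75%), of which 602 were shared, 69.2% of the female and 76.1% of the male calls, all in the same direction. A test of the difference called 0 genes (0%) in edgeR and 0 in DESeq2, with 363 and 406 at an unadjusted p under 0.05. The lowest p belonged to ST6GALNAC4, a sialyltransferase, with a male minus female difference of -0.66 ± 0.14 (adjusted p = 0.999). SLC4A1 changed by 2.75 in females and 2.55 in males, CD79A by -0.93 and -0.9959, and IFIT1 by 2.03 and 1.66.

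The draw before Day 15 used here was Day 9, and the one after was Day 21. These comparisons share the Day 15 libraries, so they are set side by side and not correlated. Between Day 9 and Day 15, 363 genes rose (2.64% of those tested) and 30 fell (0.218%). In every animal outside library number 0, the Day 9 number was below the Day 15 number. Day and library number cannot be told apart in those animals. Erythroid genes rose further: 11 of 19 for globin and heme, 15 of 20 for membrane and skeleton, 11 of 19 regulators and 18 of 24 for reticulocyte maturation. SLC4A1 ran from 189.9 to 7607 CPM (median 1341) at Day 9 and rose by 1.21 ± 0.19 to Day 15 (adjusted p = 2.82e-04).

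The highest called genes with one direction in at least 90% of the 24 animals were AHSP (1.27 ± 0.19), HYAL3 (1.24 ± 0.22), SLC25A39 (1.22 ± 0.21), GPX1, an antioxidant enzyme (1.22 ± 0.23), and KLF1 (1.20 ± 0.23), and the only one lower was HECTD2 (-0.59 ± 0.12). HYAL3 shares exons with NAA80 on the same strand. Platelet genes rose in this interval, with 9 of 14 higher, among them the integrin ITGA2B (0.74 ± 0.19). No interferon gene rose and 1 fell, with a list median of 0.01, and no B cell gene was called (median 0.25). CD79A was 0.53 ± 0.10 and IFIT1 0.36 ± 0.19 from Day 9 to Day 15, neither called.

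From Day 15 to Day 21, compared in the 16 animals whose libraries lay in one number range at both draws (12 LD and 4 HD), 296 genes were called, of which 179 fell (1.3% of those tested) and the rest rose (0.851%). With DESeq2 87 of 322 called genes were higher. With all 24 animals 143 were called, 71 higher and 72 lower. Members of the erythroid lists fell in the 16 animals: 3 of 19 for globin and heme, 10 of 20 for membrane and skeleton, 7 of 19 regulators and 5 of 24 for reticulocyte maturation. The 4 HD animals were those with library number 0, among them B2504, whose Day 15 change was highest in all 4 erythroid lists. The fit was not repeated without B2504. SLC4A1 fell by 0.82 ± 0.20, whereas HBA (-0.28 ± 0.26) and ALAS2 (-0.49 ± 0.18) were not called.

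The lowest genes by the naming rule included SLC6A9, TRIM58, SELENBP1 and MPIG6B, a platelet receptor (-0.85 ± 0.17). The highest were TMEM56 (1.04 ± 0.21), ATP23 (1.01), RPS7 (0.98), FANCL (0.93) and RPS27A (0.88). Of 29 cytosolic ribosomal protein genes 7 rose (median 0.35), a family whose counts can be shared with processed pseudogenes. TMEM56, ATP23 and FANCL were already higher at Day 15 than in the controls (1.003, 0.83 and 1.04). Of the 14 platelet genes 4 fell and of the B cell genes none was called, CD79A at 0.04 ± 0.08.

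**Figure D5:**
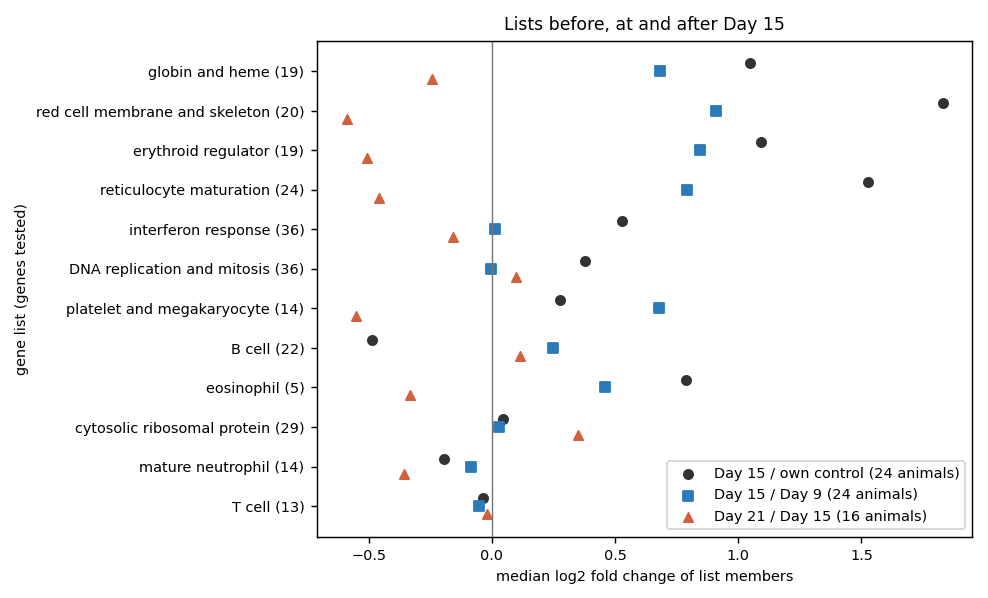
Median log2 fold change (x axis) of the tested members of 12 gene lists (y axis, number of tested genes in brackets) for Day 15 against own control (black circles), Day 15 against Day 9 (blue squares) and Day 21 against Day 15 (orange triangles). The erythroid medians are above 0 in the first 2 comparisons and below 0 in the last, and the platelet median goes from 0.68 to -0.55.

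The study chose lists of Day 15 genes to predict dose, survival and pleural effusion from these same samples, so their members are not independent evidence of a direction. Of 19 tested dose genes, 6 were called higher and 1 lower: ALAS2 (2.30), IFIT1 (1.84), SLC48A1, a heme transporter (1.29), UBAC1 (1.19), NUDT4 (0.99) and SCYL2 (0.65), and CD79A (-0.96). In the test of the dose difference none of the 19 passed, with HD minus LD values from -0.42 to 0.46 and a lowest adjusted p of 0.599. Of 18 tested survival genes 14 were called higher (median 1.24): HBB, PAQR9 (2.36), BCL2L1, GPX4, which repairs oxidized lipids (2.05), UBE2O, R3HDM4 (1.85), RIOK3 (1.62), the ferritin light chain FTL (1.45), SLC48A1, UBAC1, REXO5 (1.08), EIF2AK1, a kinase that senses low heme (1.02), DCAF6 (0.85) and SCYL2.

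FTL ran from 1348 to 4913 CPM (median 2415) in the controls and from 3281 to 12900 CPM (median 6238) at Day 15, higher in 24 of 24 animals. Of 15 pleural effusion genes 10 were called higher (median 1.45), among them DMTN, ALAS2, BCL2L1, C15H9orf78 (1.75), RIOK3, DCUN1D1 (1.58), FTL, SLC48A1 and DDB1 (0.98). Quantitative PCR in the study covered 6 of the tested genes, of which DCAF12 (2.09), C15H9orf78, DCUN1D1 and the lipase LPL (0.87 ± 0.11) were called higher. The complement chain C1QB (0.54 ± 0.11) and JADE2 (-0.44 ± 0.06) were not.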

How the data were processed

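Whole blood from a peripheral vein was stabilised and sequenced as rRNA-depleted (Ribo-Zero Plus), stranded total RNA libraries. The authors trimmed reads (cutadapt 2.10), aligned them to Mmul_10 (STAR 2.7.6a) and counted them per gene (Subread 2.0.1), according to the study's methods and the submitters' processing notes. The deposited count table holds raw whole-number counts, and a second deposited table holds the authors' log2 values, used here only in an alternative. Whether counting used strand is not given in the sources used here, so exon overlaps on the opposite strand are named beside the genes concerned.

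Samples were grouped by their labels and paired by animal. The members and lists were chosen with earlier results of these data known. A gene needed 3 counts or more in 80% of the 304 libraries (13751 of 21070 passed) and was tested with edgeR 4.0.16 (quasi-likelihood, upper quartile scaling, animal as block, R 4.3.3), with Benjamini-Hochberg adjustment. Same-animal libraries deviated together in 24 of 24 animals (correlation above 0.1, lowest 0.194, median 0.534). In 23 of 24 animals the control library correlated best with the Day 15 library of the same animal. The code was tested on simulated data. Named genes were the 12 highest and 12 lowest called genes with a symbol other than LOC, a mean of at least 1 CPM in the higher group and one direction in at least 22 of 24 animals, then the 3 called members of each list with the largest change (or the lowest p where none was called), the called genes of the study's Day 15 lists, the tested quantitative PCR genes, cell type markers, and 5 each way for Day 9 and Day 21. Alternatives were TMM scaling, scaling without the erythroid lists, DESeq2 1.42.0, other filters, limma 3.58.1 on the log2 values, no animal block, subsets of animals and leaving out each animal. Promoters came from the RefSeq annotation of Mmul_10. A few genes and a promoter sequence that these rules would name are not reported here.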

Additional observations from a re-analysis of the deposited data

How the results depend on the processing

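For Day 15 against own control, 826 genes were called, 780 to 1039 under the other scalings, filters and tests, and 788 (without B2504) to 857 (without B1002, B2502 or B2503) with 1 animal left out. The fit without the animal block called 823, but 3621 genes against 5590 passed the adjusted p alone without the pairing, EPX (0.28) and WNT7B (-0.70) lost their calls, and AGER, KIT and TNFRSF10C gained one. Day 21 against Day 15 depended on the fit: 296 genes were called, 130 without the block and 143 with all 24 animals, and the higher share of the calls was 39.5% against 31.9% with TMM, 27.02% with DESeq2, 27.7% without the filter on low counts, 56.2% without the block and 49.7% with all 24 animals. The cause was not tested. The dose difference gave 0 genes in edgeR and 1 in DESeq2. Over the named genes, 1178 values kept their direction and call, 19 lost the call, 14 gained it and 0 reversed. PPBP, PSMC2 and PSMD4 lost theirs without B2504 or without B2505. Depth limits genes near 1 CPM the most, as the libraries held 6676757 to 14609879 counts.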
